A study of Mus musculus with 6 samples.

Results

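The 9 genes described here carry retinol to cells, turn it into retinoic acid, bind that acid, break it down or respond to it: Rbp4, Stra6, Aldh1a1, Aldh1a2, Aldh1a3, Crabp1, Crabp2, Cyp26b1 and Rarb. They were picked by gene symbol, and all 9 were found among the 17457 genes of the deposited table. The study asked how mesenchymal stem cells (MSCs) from mouse long bones differ after a single passage in culture from those taken directly from the bone. RNA was sequenced from 4 samples of cultured MSCs and 2 of primary MSCs, all from wild type, female C57BL/6J mice that were 10 weeks old. For cultured MSCs, the mixed cells of the digested bone were grown for 10 days in MesenCult medium and then sorted, with the cells of 2 mice in each sample. Primary MSCs were sorted straight from the digest without culture, in pools from 4 and from 6 mice. Both were sorted as viable CD45-, Ter119-, CD31-, Sca-1+ and PDGFRα+ cells. Because the mixed digest was cultured before the sort, the groups may differ in which cells they hold as well as in what each cell expresses. In these bulk samples, fewer cells of a type and less RNA per cell cannot be told apart.

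Retinoic acid is made from vitamin A (retinol) in 2 oxidation steps, of which retinaldehyde dehydrogenases carry out the second, irreversible one. It acts in the nucleus, where retinoic acid receptors (RARs) paired with retinoid X receptors bind direct repeats in DNA and switch target genes on when the acid is present. In skeletal tissue the signal is known for its part in limb patterning and in the growth and maturation of cartilage and bone.

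Values are FPKM (fragments counted per length of transcript and per total of mapped fragments), which are scaled by transcript length and so can be set side by side between genes. A cultured library summed to 612104 to 642497 FPKM and the primary libraries to 571471 and 559601 FPKM, and the reads behind a single value are unknown. Fold changes are cultured over primary MSCs on the log2(FPKM + 0.1) scale, which understates changes of weakly expressed genes. They come from limma across the 11405 genes that reached 1 FPKM in 2 or more libraries, and a gene is said to have risen or fallen where its Benjamini-Hochberg adjusted p from that fit was under 0.05. The median gene stood 0.45 higher in cultured MSCs on this scale, and each gene's change can be read against that shift. Of the sort markers, Ly6a (Sca-1) was listed at 1117 to 1190 FPKM in cultured MSCs and at 1056 and 1711 FPKM in primary MSCs, and Pdgfra at 35.5 to 43.1 FPKM in cultured MSCs and at 66.8 and 72.7 FPKM in primary MSCs. Ptprc (CD45) stood at 0.12 to 0.47 FPKM in cultured MSCs and at 0 and 0.02 FPKM in primary MSCs. Pecam1 (CD31) stood at 0.02 to 0.08 FPKM in cultured MSCs and at 0.18 and 0.62 FPKM in primary MSCs. An exact permutation test of 4 libraries against 2 has 15 arrangements and cannot give a p under 0.0667. The labels do not tell whether the numbered samples came from separate cultures or sorts on separate days, so the p values measure the spread between these samples.

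Of the 9 genes, 3 rose in cultured MSCs (Aldh1a1, Crabp1 and Cyp26b1), 5 fell (Rbp4, Stra6, Aldh1a3, Crabp2 and Rarb), and Aldh1a2 did not pass the test. Among all genes tested, 65.7% passed, 48.1% as higher and 17.6% as lower in cultured MSCs. When libraries were scaled by median ratios, which left the median gene at 0.06, 3524 of all genes tested rose and 3121 fell in place of 5485 and 2008. Stra6, Aldh1a3 and Rarb reached the minimum of 1 FPKM in the primary libraries alone, so these genes had to differ to be tested, and the tally is a description of the chosen genes and no more. The groups did not overlap for the same 8 genes, 3 higher and 5 lower in cultured MSCs, and for 72.8% of all genes tested (52.3% higher and 20.4% lower). The study's own thresholds were an adjusted p up to 0.01 and a log2 fold change of 2 or more in either direction. Applied to this limma fit, they gave 2 of the 9 as higher and 4 as lower. Beside these stood 8.36% and 5.95% of all genes (14.3% together). In the paper, which used DESeq2, more genes were lower than higher at these thresholds, so these shares are not the paper's.

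**Figure D1:**
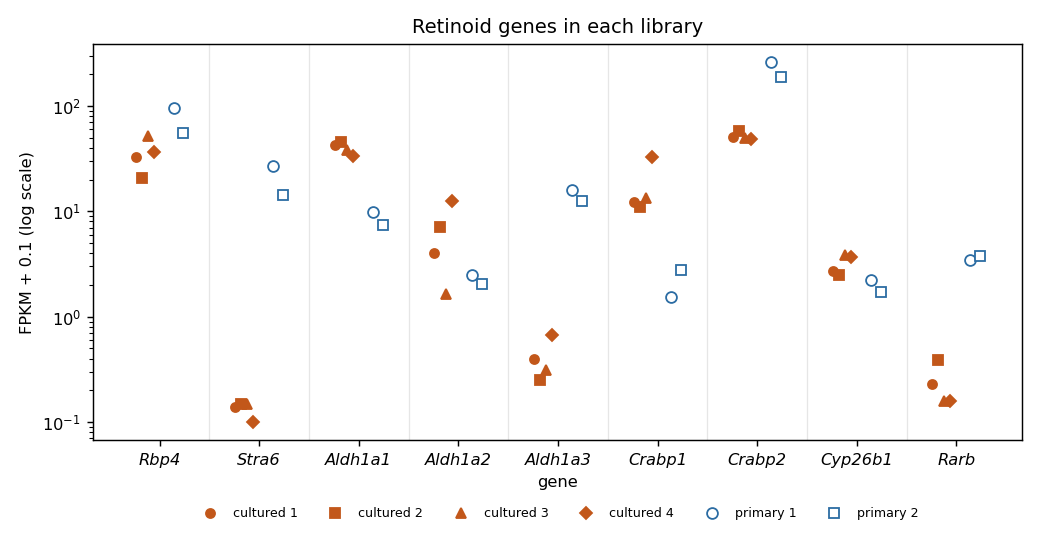
FPKM + 0.1 (vertical axis, log scale) of the 9 genes in each library, with the 4 cultured libraries as filled symbols on the left of each gene and the 2 primary libraries as open symbols on the right. Stra6 stood at 0 to 0.05 FPKM in cultured MSCs and at 14.2 and 27.1 FPKM in primary MSCs, and Aldh1a2 is the gene whose groups overlap.

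Rbp4 and Stra6, the genes of retinol delivery among the 9, fell. Rbp4 encodes the plasma carrier that brings retinol from the liver to other tissues. It had 32.6, 20.7, 51.5 and 36.7 FPKM in cultured MSCs, against 94.7 and 55.7 FPKM in primary MSCs. The highest cultured value lay just under the lower primary value, and the log2 fold change was -1.11 (standard error 0.34, adjusted p = 0.0213, limma). Without primary replicate 1 it was -0.73 and did not pass (adjusted p = 0.178). The gene lies at chr19:38116620-38125321 on the minus strand (GRCm38.p6).

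Stra6 encodes the membrane receptor that takes retinol over from its plasma carrier, and its own transcription is known to respond to retinoic acid. It was listed at 0.04, 0.05, 0.05 and 0 FPKM in cultured MSCs, against 27.1 and 14.2 FPKM in primary MSCs. The groups were far apart, with every cultured value near the last decimal of the table. The log2 fold change was -7.21 (standard error 0.36, adjusted p = 2.15e-06), the largest in size of the 9, and it ranged from -9.06 with a pseudocount of 0.01 to -4.32 with one of 1. In primary MSCs Stra6 ranked 3092nd of the 17457 genes by mean FPKM, and in cultured MSCs 14452nd. Stra6 lies at chr9:58063793-58154004 on the plus strand.

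Adipocytes also express Rbp4 and Stra6. Of 6 adipocyte markers, 4 were in the table, and they summed to between 12.3 and 14.7 FPKM in cultured MSCs and to 11.7 and 3.40 FPKM in primary MSCs. Adipoq (adiponectin) stood at 0.09 to 1.06 FPKM in cultured MSCs and at 8.48 and 1.84 FPKM in primary MSCs, while Fabp4 stood at 12.1 to 14.6 FPKM in cultured MSCs and at 3.10 and 0.97 FPKM in primary MSCs. Plin1 and Cidec, which coat lipid droplets, were listed at 0 in all 4 cultured libraries and were near 0 in primary MSCs too, Plin1 at 0.09 and 0 FPKM and Cidec at 0 and 0.59 FPKM. Markers of osteoblasts moved much further, with the 5 summing to 22.7 to 30.9 FPKM in cultured MSCs and to 569 and 1320 FPKM in primary MSCs, mostly from Ibsp and Bglap2. The part of either cell type in the changes of the 9 genes was not tested.

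The 3 retinaldehyde dehydrogenase genes, which encode enzymes for the same step, did not move together. Aldh1a1 had 42.4, 45.0, 38.2 and 33.1 FPKM in cultured MSCs, against 9.64 and 7.35 FPKM in primary MSCs. Every cultured value was more than 3 times either primary value, and the log2 fold change was 2.21 (standard error 0.16, adjusted p = 1.44e-05). Aldh1a3 had 0.30, 0.15, 0.21 and 0.57 FPKM in cultured MSCs, against 15.8 and 12.5 FPKM in primary MSCs. It was thus close to absent in each cultured library, and its log2 fold change was -5.22 (standard error 0.40, adjusted p = 1.67e-05). These genes lie at chr19:20492583-20643463 on the plus strand (Aldh1a1) and chr7:66390892-66427477 on the minus strand (Aldh1a3).

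Aldh1a2, the main retinoic acid source of the early embryo, had 3.92, 7.07, 1.55 and 12.5 FPKM in cultured MSCs, against 2.39 and 1.93 FPKM in primary MSCs. Cultured replicate 3 lay below both primary libraries and the other 3 above them. The log2 fold change of 1.14 did not pass (standard error 0.69, 95% confidence interval -0.46 to 2.73, adjusted p = 0.178). Without cultured replicate 3 it was 1.66 and passed (adjusted p = 0.0158). Its spread among the cultured libraries, an SD of 1.25 on the log2 scale, was wider than that of 99.9% of all genes tested. Aldh1a2 lies at chr9:71215789-71296243 on the plus strand.

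Aldh1a2 is also known from dendritic cells and macrophages of the gut, cells that the sort for CD45- cells in both groups would remove. Macrophage markers were nevertheless higher in cultured MSCs. The 14 markers of macrophages and monocytes summed to 251, 311, 99.1 and 255 FPKM in cultured replicates 1 to 4. In primary MSCs they summed to 32.2 and 33.1 FPKM. Of the 10 tested, 9 rose, beside 48.1% of all genes tested. Adgre1, Csf1r, C1qa, C1qb, C1qc, Mrc1 and Tyrobp reached 1 FPKM in cultured MSCs alone. These had to differ to be tested, so the count is a description only. Lyz2 and Cd68 were the most abundant, Fcgr1, Mrc1 and Mpeg1 were listed at 0 in both primary libraries, and Fcgr1 and Mpeg1 were at most 0.26 FPKM in cultured MSCs. The sum was lowest in replicate 3, as Aldh1a2 was, but highest in replicate 2, whereas Aldh1a2 was highest in replicate 4. Most of that sum was Lyz2, with 180, 221, 60.6 and 175 FPKM in cultured replicates 1 to 4. Single markers differed, with Csf1r and C1qc highest in replicate 4, and Cd68, Adgre1, C1qa, C1qb and Tyrobp highest in replicate 2. The 7 dendritic cell markers in the table summed to between 0.96 and 1.34 FPKM in cultured MSCs and to 1.34 and 2.98 FPKM in primary MSCs. The part of these cells in the values of Aldh1a2 was not tested.

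Shares within a library do not depend on how libraries are scaled. Aldh1a1 made up 71.7% to 95.6% of the summed FPKM of the 3 genes in cultured MSCs (86.1% ± 10.3, SD, n = 4) and 34.6% and 33.8% of it in primary MSCs. Aldh1a3 made up 0.29% to 1.24% in cultured MSCs and 56.8% and 57.4% in primary MSCs. Both differences had the smallest p the exact permutation test can give, 0.0667 two-sided, which is not under 0.05. Aldh1a2 held 3.88% to 27.0% in cultured MSCs and 8.59% and 8.87% in primary MSCs, which overlap (exact permutation p = 0.8). The sum of the 3 was 46.7, 52.2, 40.0 and 46.2 FPKM in cultured MSCs and 27.8 and 21.8 FPKM in primary MSCs. The leading gene of the family was therefore Aldh1a1 in every cultured library and Aldh1a3 in both primary libraries.

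**Figure D2:**
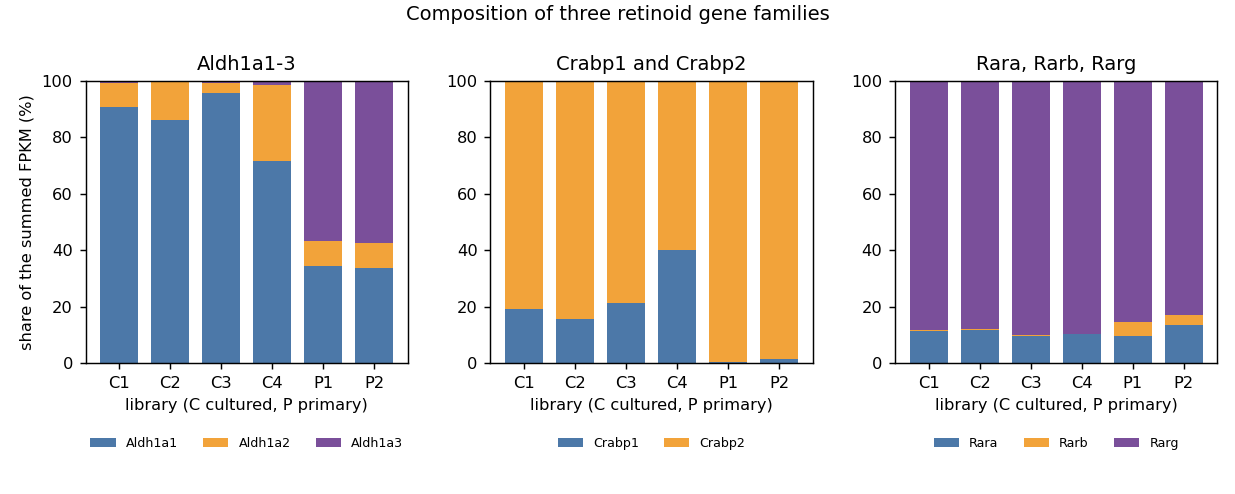
Share of each gene (vertical axis, percent) in the summed FPKM of Aldh1a1, Aldh1a2 and Aldh1a3, of Crabp1 and Crabp2, and of Rara, Rarb and Rarg, with 1 bar for each of the 4 cultured (C) and then the 2 primary (P) libraries. Aldh1a3 held 56.8% and 57.4% of its family in primary MSCs and at most 1.24% in cultured MSCs, while Rarg held most of the receptor family in every library.

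The cellular retinoic acid binding proteins changed in opposite directions. Crabp2 is known to hand retinoic acid to receptors in the nucleus, and Crabp1 to hold it in the cytosol, where it can be passed to breakdown. Crabp2 had 50.9, 58.0, 49.1 and 48.7 FPKM in cultured MSCs, against 260 and 189 FPKM in primary MSCs. The cultured libraries lay within a narrow band far below both primary libraries, and the log2 fold change was -2.10 (standard error 0.14, adjusted p = 9.34e-06). It was the most abundant of the 9 genes in both groups by mean FPKM, ranking 1914th of all 17457 genes in cultured MSCs and 372nd in primary MSCs. Crabp2 lies at chr3:87948693-87953372 on the plus strand.

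Crabp1 had 12.1, 10.8, 13.4 and 32.5 FPKM in cultured MSCs, against 1.44 and 2.66 FPKM in primary MSCs. The groups did not overlap, and cultured replicate 4 stood far above the other cultured libraries. The log2 fold change was 2.92 (standard error 0.45, adjusted p = 0.000648), and 2.56 without that replicate (adjusted p = 0.000289). Crabp1 thus made up 15.7% to 40.0% of the FPKM of the pair in cultured MSCs and 0.55% and 1.39% in primary MSCs (exact permutation p = 0.0667, the smallest possible). The summed FPKM of the pair was 62.5 to 81.3 in cultured MSCs and 262 and 192 in primary MSCs. The gene lies at chr9:54764748-54773110 on the plus strand. Fabp5, a fatty acid binding protein known to carry retinoic acid to another nuclear receptor, PPARδ, rose as well, with 28.3 to 34.3 FPKM in cultured MSCs and 5.77 and 4.77 FPKM in primary MSCs (log2 fold change 2.55, adjusted p = 2.66e-06).

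Cyp26b1, a cytochrome P450 that inactivates retinoic acid and is known to limit it in growing bone, had 2.62, 2.37, 3.75 and 3.55 FPKM in cultured MSCs, against 2.12 and 1.60 FPKM in primary MSCs. The groups lay close to each other without overlapping. At 0.68 (standard error 0.26), the log2 fold change was only just past the threshold (adjusted p = 0.0444) and was 0.24 above that of the median gene. It did not pass with median ratio scaling (0.31, adjusted p = 0.327), with quantile normalization (0.46, adjusted p = 0.15) or without any 1 of 4 libraries, so its rise depended on the scaling and on single libraries. The gene lies at chr6:84571414-84593908 on the minus strand. Cyp26a1, the related enzyme that many cells induce when given retinoic acid, was listed at 0 in 3 of the 4 cultured libraries and at 0.02 FPKM in replicate 2, and at 2.84 and 0 FPKM in primary MSCs, too low to be tested.

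**Figure D3:**
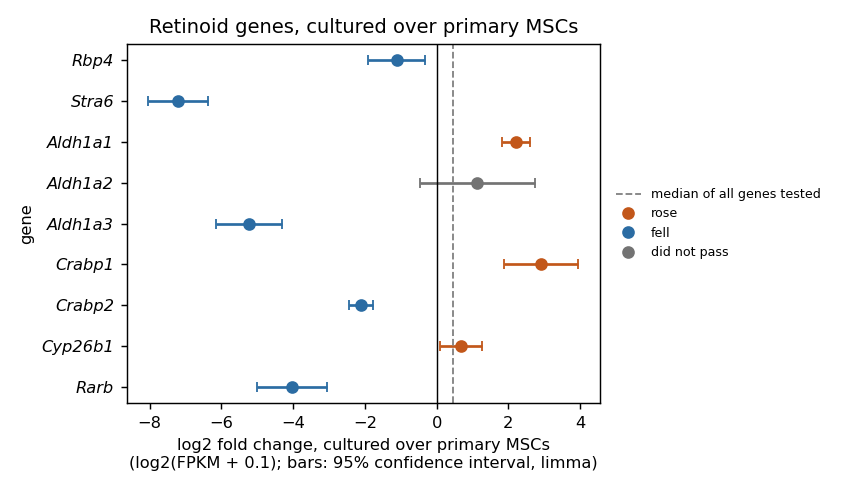
Log2 fold change of cultured over primary MSCs (horizontal axis, log2(FPKM + 0.1)) for the 9 genes with 95% confidence intervals from limma, beside 0 (solid line) and the median of all genes tested, 0.45 (dashed line). Crabp1 and Aldh1a1 lie furthest above the median, Stra6, Aldh1a3 and Rarb lie furthest below it, and the interval of Aldh1a2 spans 0. The interval of Cyp26b1, from 0.09 to 1.27, spans the median.

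Rarb encodes retinoic acid receptor β and is a classic target of the receptors themselves. It had 0.13, 0.29, 0.06 and 0.06 FPKM in cultured MSCs, against 3.34 and 3.63 FPKM in primary MSCs. Both primary values were more than 10 times the highest cultured one, and the log2 fold change was -4.03 (standard error 0.42, adjusted p = 8.64e-05). The gene lies at chr14:16430839-17082331 on the minus strand. Its FPKM value covers all its transcripts, so those from different start sites cannot be told apart.

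The other receptors did not pass the test in either direction. Rarg, the most abundant of them, had 53.5, 69.9, 80.5 and 95.4 FPKM in cultured MSCs and 59.1 and 87.4 FPKM in primary MSCs (log2 fold change 0.03, 95% confidence interval -0.53 to 0.58, adjusted p = 0.931). Rara had 6.93 to 11.1 FPKM in cultured MSCs and 6.68 and 14.4 FPKM in primary MSCs. Its fold change of -0.13 passed as lower without primary replicate 1 (-0.68, adjusted p = 0.0476) and was 0.41 without primary replicate 2. Rxra stood at 6.63 to 7.91 FPKM in cultured MSCs and at 7.62 and 9.43 FPKM in primary MSCs. Its fold change of -0.23 (adjusted p = 0.242) passed as lower with median ratio scaling (-0.61) and quantile normalization (-0.57). Rxrb, with 4.97 to 5.68 FPKM in cultured MSCs and 5.53 and 3.36 FPKM in primary MSCs, passed as higher without primary replicate 1 (0.65, adjusted p = 0.011). Rarb made up 0.06% to 0.36% of the summed FPKM of the RAR genes in cultured MSCs and 4.83% and 3.44% in primary MSCs (exact permutation p = 0.0667), and Rarg 87.8% to 90.1% in cultured MSCs and 85.5% and 82.9% in primary MSCs (exact permutation p = 0.0667). The RAR genes together gave 60.6 to 107 FPKM in cultured MSCs and 69.1 and 105 FPKM in primary MSCs, so the groups overlapped.

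The promoter window of Rarb is shown because it holds a binding motif of the receptors, and Rarb was among the genes that fell. Promoter windows, from 250 bases before to 50 bases after a start site, were taken from RefSeq on GRCm38.p6 for 7 of the 9 genes, 12 windows in all. The 1 window of Rarb lies at a start site inside the gene, at chr14:16575427-16575726. Its 250 bases before that start, at chr14:16575477-16575726 on the minus strand, read 5′ to 3′ as follows, with capitals for a pair of half-sites spaced by 5 bases.
Rarb promoter: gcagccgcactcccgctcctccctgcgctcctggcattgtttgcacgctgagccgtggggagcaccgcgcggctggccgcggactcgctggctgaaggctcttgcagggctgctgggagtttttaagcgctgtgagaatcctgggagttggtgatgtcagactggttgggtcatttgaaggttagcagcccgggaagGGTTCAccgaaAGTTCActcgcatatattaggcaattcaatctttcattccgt

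The search was for 2 half-sites in the same direction, spaced by 1, 2 or 5 bases, on both strands. A half-site was AGGTCA or, with another first base, GGGTCA. It could also be AGTTCA or, with the same exchange of the first base, GGTTCA. The pair in Rarb ran from base -53 to base -37 relative to the start. Of the 12 windows it was the only one that held such a pair. Among the windows of the other listed genes of the pathway, that of Cyp26a1 held a pair of the same spacing on the opposite strand, from -32 to -16. The 2 pairs are set side by side here, each in its own 5′ to 3′ direction with the half-sites in capitals, to show how alike they are.
Rarb: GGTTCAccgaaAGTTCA
Cyp26a1: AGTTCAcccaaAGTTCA
Pairs spaced by 5 bases were held by 32 of all 32851 windows (0.0974%), and pairs with any of the 3 spacings by 193 (0.588%). Bco1, a carotenoid-cleaving enzyme, had a pair spaced by 1 base. A match in letters is a description of the window, and no match says only that these letters are not in it.

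Beyond the 9, a list of 65 other genes of retinoid transport, metabolism, signalling and response was drawn up from general knowledge. Of these, 56 were in the table and 38 were tested, of which 11 rose, 12 fell and 15 did not pass, beside 48.1% and 17.6% of all genes. With median ratio scaling 8 rose and 15 fell, where 3524 and 3121 of all 11405 genes tested did. Some of the 38 reached 1 FPKM in 1 group alone and so had to differ to be tested, among them Adh1 (primary MSCs) and Rdh12 (cultured MSCs). With 1 primary library left out and the filter applied anew, 36 of the 38 were still tested. That step cannot drop genes that passed through the cultured libraries alone, such as Rdh12, so it does not count the genes that had to differ. The median log2 fold change of the 38 was 0.01, which is -0.44 relative to that of all genes.

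Scarb1, a scavenger receptor that takes up lipoproteins and carotenoids, rose to 35.6 to 43.5 FPKM in cultured MSCs, against 4.86 and 3.01 FPKM in primary MSCs (log2 fold change 3.32, adjusted p = 4.36e-06). Of 13 tested genes whose products interconvert retinol and retinaldehyde or belong to their enzyme families, 7 rose and 2 fell (53.8% and 15.4%, near the 48.1% and 17.6% of all genes tested). With median ratio scaling, Rdh14, Dhrs3, Dhrs9 and Rdh12 still rose, and Adh5, Adh7 and Rdh11 did not pass. Dhrs3, which reduces retinaldehyde back to retinol, was the most abundant of them and rose, with 258, 269, 228 and 235 FPKM in cultured MSCs and 140 and 109 FPKM in primary MSCs (log2 fold change 1.00, adjusted p = 0.000218).

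Dhrs9 and Rdh12 rose most among these enzymes, by log2 fold changes of 2.50 and 2.31. Adh1, an alcohol dehydrogenase that can oxidize retinol, fell, with 0.20 to 0.44 FPKM in cultured MSCs and 4.65 and 4.23 FPKM in primary MSCs (-3.48, adjusted p = 5.81e-05). Dhrs7 fell by 0.34 on the log2 scale (adjusted p = 0.0212), a call lost when any 1 of 4 libraries was left out and without a trend in limma. Rdh10, the main retinol oxidase of the embryo, had 2.21 to 4.52 FPKM in cultured MSCs and 3.7 and 0.84 FPKM in primary MSCs. Its fold change of 0.77 did not pass (adjusted p = 0.232), was 1.77 without primary replicate 1 (adjusted p = 0.00693) and -0.24 without primary replicate 2.

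Of 8 coregulators of nuclear receptors, 5 fell and none rose, beside 17.6% and 48.1% of all genes. The number that fell was 7 with median ratio scaling, where 3121 of all 11405 genes tested fell in place of 2008. It was 3 without cultured replicate 3 or without cultured replicate 4, where 1796 and 1844 of all genes fell. Ncoa1 and Ncoa3, which coactivate liganded receptors, had the largest falls, with log2 fold changes of -1.22 and -0.91. Of 9 tested genes known to respond to retinoic acid in some cell type, 2 rose and 4 fell. That is 22.2% and 44.4% of them, beside 48.1% and 17.6% of all genes. With median ratio scaling 2 rose and 4 fell as well, where 3524 and 3121 of all 11405 genes tested did. Rarres2, which encodes the secreted protein chemerin, had 0.82 to 1.05 FPKM in cultured MSCs and 263 and 227 FPKM in primary MSCs (log2 fold change -7.90, adjusted p = 7.23e-08). Tgm2, transglutaminase 2, had 3.55 to 4.68 FPKM in cultured MSCs and 97.3 and 114 FPKM in primary MSCs (-4.65, adjusted p = 3.44e-07). Rai14 rose, with 10.7 to 13.3 FPKM in cultured MSCs and 7.23 and 4.15 FPKM in primary MSCs (1.09, adjusted p = 0.00278).

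**Figure D4:**
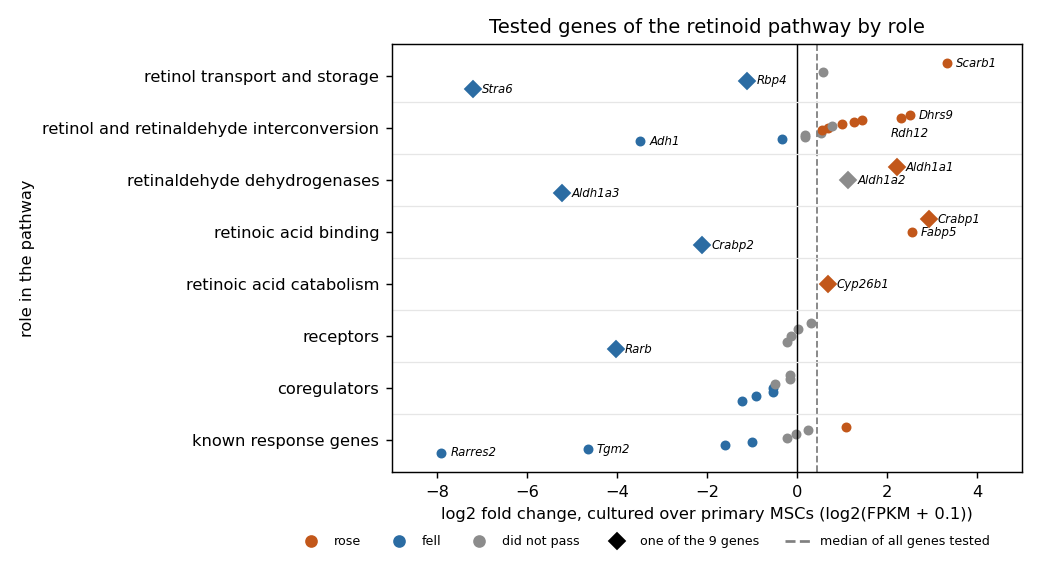
Log2 fold change of cultured over primary MSCs (horizontal axis, log2(FPKM + 0.1)) for the tested genes of the retinoid pathway, 1 row for each role, with diamonds for the 9 genes described here, circles for the other listed genes, and colours for the outcome of the test (genes not reported here are not drawn). The 4 receptors other than Rarb lie near 0, the coregulators lie between -1.22 and -0.15, below the median of all genes, 0.45 (dashed line), and Rarres2 and Stra6 lie furthest to the left.

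The order of the 9 genes by mean FPKM differed between the groups. In cultured MSCs it ran from Crabp2 (51.7 ± 4.32, SD, n = 4) over Aldh1a1 (39.7 ± 5.19), Rbp4 (35.4 ± 12.7), Crabp1 (17.2 ± 10.3), Aldh1a2 (6.26 ± 4.73), Cyp26b1 (3.07 ± 0.680), Aldh1a3 (0.308 ± 0.186) and Rarb (0.135 ± 0.108) to Stra6 (0.0350 ± 0.0238). Among neighbours in that order, Crabp2 and Aldh1a1, Cyp26b1 and Aldh1a3, and Rarb and Stra6 did not overlap between libraries, and all other neighbours did. In primary MSCs it ran from Crabp2 (225 ± 50.2, SD, n = 2) over Rbp4 (75.2 ± 27.6), Stra6 (20.6 ± 9.10), Aldh1a3 (14.1 ± 2.35), Aldh1a1 (8.50 ± 1.62), Rarb (3.49 ± 0.205), Aldh1a2 (2.16 ± 0.325) and Crabp1 (2.05 ± 0.863) to Cyp26b1 (1.86 ± 0.368). There Stra6 and Aldh1a3 overlapped, and so did Aldh1a2, Crabp1 and Cyp26b1. Library by library, Stra6 was nonetheless above Aldh1a3 in both primary libraries. In each cultured library, Rbp4 was above Crabp1 and Crabp1 above Aldh1a2. Stra6 thus stood in the third place in primary MSCs and in the last in cultured MSCs.

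The genes with the profile closest to that of Crabp1, by Euclidean distance of the log2 values over the 6 libraries, were Dis3, Desi1 and Ephb6, at distances of 1.26, 1.29 and 1.32. Those closest to Stra6 were Gm2457, Gm2564 and Col15a1, at 0.741, 0.741 and 0.842. Gm2457 and Gm2564 had identical values in every library, 0, 0.05, 0.07 and 0 FPKM in cultured MSCs and 18.8 and 13.3 FPKM in primary MSCs, and how reads were shared out between these copies is uncertain. Col15a1, a basement membrane collagen, had 0.01 to 0.07 FPKM in cultured MSCs and 20.1 and 18.2 FPKM in primary MSCs.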

How the data were processed

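According to the paper's methods and the submitters' processing notes, the authors cleaned reads with SOAPnuke, used HISAT2 2.0.4 for the genome (GRCm38.p6) and Bowtie2 2.2.5 for the gene set, estimated gene levels with RSEM 1.2.8 and deposited them as FPKM with 2 decimals. The table also holds a column of the authors' own log2 fold changes, which was not used. It holds no counts, so the study's DESeq2 test was not run.

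Gene symbols were stripped of apostrophes. Genes that reached 1 FPKM in 2 or more libraries were fitted on log2(FPKM + 0.1) with limma 3.58.1 in R 4.3.3, with a trend and 4 residual degrees of freedom, and p values were adjusted over all 11405 genes. The fit was tested on simulated data. Shares were compared by exact permutation tests over libraries. Other settings tried were a pseudocount of 0.01 or 1, the filter dropped or set on a mean of 1 FPKM, median ratio scaling, quantile normalization, TPM, limma without a trend or with robust moderation, a block for the replicate number, and each library left out in turn with the genes tested kept as they were. Applying the filter anew without a primary library was added after seeing the data.

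The 9 genes, the pathway list, the marker lists and the tests were chosen with earlier results of these data known. Named pathway genes are those called, or the 2 that rose most and the 2 that fell most of a role with more than 4 calls, plus Rara, Rarg, Rxra, Rxrb, Rdh10, Dhrs3 and Fabp5, and some results are not reported here. Profiles most like that of the gene with the largest rise and the largest fall were ranked by distance. Of the marker lists, those of endothelial, erythroid, smooth muscle, Schwann, skeletal muscle and keratinocyte genes summed in cultured MSCs to 4.90 to 5.42, 0.20 to 0.61, 322 to 354, 0.41 to 0.75, 3.56 to 6.43 and 2.24 to 3.03 FPKM, and in primary MSCs to 3.84 and 4.40, 239 and 150, 77.7 and 70.7, 0.72 and 2.86, 3.55 and 2.74, and 4.53 and 1.95 FPKM. Figures were made with Python 3.11.15, pandas 2.3.3 and matplotlib 3.10.9.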

Additional observations from a re-analysis of the deposited data

Results flagged for a closer look

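In 33 sets of 4 cultured values (the 9 genes, the named pathway genes and the shares), each was checked for a library that stands far from the other 3 by Dixon's criterion, which chance meets in about 1 group in 20. Crabp1 met it, with 32.5 FPKM in cultured replicate 4 against 10.8 to 13.4 FPKM in the other cultured libraries, and its fold change passed the test with and without that library. Of all 11405 genes tested, 600 (5.26%) had a cultured library apart in this way, and in 70 (0.614%) it was replicate 4 with a high value.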

How the results depend on the processing

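Under each of 16 other settings, Aldh1a1, Crabp1, Stra6, Aldh1a3, Crabp2 and Rarb kept their direction and passed the test. Rbp4 passed in 15, and with 1 primary library left out its fold change was -0.73 (adjusted p = 0.178) or -1.49. Cyp26b1 passed in 7. It did not pass with no filter (0.68, adjusted p = 0.0721), median ratio scaling (0.31), quantile normalization (0.46), TPM (0.56) or the replicate block (0.42), and ranged from 0.49 to 0.87 with 1 library left out. Aldh1a2 passed with the replicate block (1.26, adjusted p = 0.0245) and without cultured replicate 3, and ranged from 0.69 to 1.66 with 1 library left out. The replicate numbers pair the groups in the labels by number alone (correlations of deviations 0.121 and 0.0519 for numbers 1 and 2), and the fit with the block had 1 residual degree of freedom and called 6191 genes, in place of 7493. With the block, 2 of the 8 coregulators fell in place of 5. With median ratio scaling 3524 genes rose and 3121 fell, with quantile normalization 3656 and 3039, and with a pseudocount of 1 the genes past the study's thresholds were 950 in place of 1633.
When 1 primary library was left out and the filter applied anew, Stra6, Aldh1a3 and Rarb were no longer tested. Of the 9, 2 then fell without primary replicate 2 and 1 without primary replicate 1, where Rbp4 did not pass either, in place of 5. Those past the study's thresholds were 3 and 2 in the same order, in place of 6, the lower number also because Crabp2 stood at -1.88 without primary replicate 1. The share of Aldh1a2 (cultured minus primary, 4.49 percentage points) ranged from -0.12 without cultured replicate 4 to 7.60 with 1 library left out, and that of Rara (-0.77) from -2.76 to 1.22, the last without primary replicate 2. With 2 primary libraries and no counts, the precision of low values such as those of Stra6 in cultured MSCs is unknown.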

Other observations

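Several listed genes of the pathway were too weakly expressed to be tested. Aldh1a7, a close relative of Aldh1a1 in mice, was listed at 0.38 to 1.22 FPKM in cultured MSCs and at 0.06 and 0 FPKM in primary MSCs, so reads shared with Aldh1a1 make its value uncertain. Bco1 stood at 0.17 to 0.32 FPKM in cultured MSCs and at 0 in both primary libraries. Rxrg stood at 0.26 to 0.49 FPKM in cultured MSCs and at 0.81 and 0.02 FPKM in primary MSCs, and Ppard at 0.51 to 0.79 FPKM in cultured MSCs and at 0.88 and 0.60 FPKM in primary MSCs. Ttr, the partner of the retinol carrier in plasma, Rbp7 and Rdh8 were listed at 0 in all 6 libraries.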
